A study of Homo sapiens with 12 samples.

Results

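The genes described are 10 genes of arachidonic acid metabolism, namely *ALOX12*, *ALOX12B*, *ALOX15B*, *ALOX5*, *ALOX5AP*, *ALOXE3*, *PTGS1*, *PTGS2*, *LTA4H* and *PLA2G4A*. They were chosen by name, with earlier results of these data known, out of 58302 gene rows in the count table. The list holds lipoxygenase and cyclooxygenase genes, *ALOX15* not among them, and some of the genes that feed or follow them. Each of the 10 symbols matched a single Ensembl row. The table held RNA sequencing counts of 12 cultures of H520 (NCI-H520), a human lung squamous cell carcinoma line. By their labels, 3 cultures expressed the L1-FGGY chimeric transcript and received DMSO (labelled L1_F_DMSO), 3 expressed L1-FGGY and received 10 μM ML355, an inhibitor of the 12-lipoxygenase that *ALOX12* encodes (L1_F_ML355), 3 expressed L1-FGGY and received 450 μM NVR, a reverse transcriptase inhibitor (L1_F_NVR), and 3 were controls with DMSO (CTRL_DMSO). The medium of all cultures was replaced 5 h after seeding, the DMSO of the vehicle groups was at 0.2%, both inhibitors had been dissolved in DMSO, and the length of exposure is not given in the sources used here. L1-FGGY joins sequence of the retrotransposon L1 to *FGGY*, a carbohydrate kinase gene; it was delivered by lentivirus, and the controls, read here as the empty vector line OV-CTRL, carry no such insert. The sources do not say whether either line was a clone or a pool, and nothing states that the numbered cultures of a group were grown independently, so that p-values measure the spread between these cultures only.

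Total counts per library ran from 16242082 to 27004768. *FGGY* was at 4782 to 7346 counts in the 6 libraries of L1_F_DMSO and L1_F_ML355, but at 82 to 103 in those labelled L1_F_NVR, beside 78 to 91 in CTRL_DMSO. *FGGY* thus went against the L1-FGGY part of the NVR label, and these libraries are called the libraries labelled NVR throughout. Correlations of log2 CPM across genes were 0.706 to 0.774 between the libraries of L1_F_DMSO or L1_F_ML355 and those of the other groups, and at least 0.932 inside each of these 2 sets. A difference that crosses the 2 sets cannot be told apart from whatever else separates them. Of 10 squamous markers, *KRT5*, *KRT6A*, *DSG3* and *PKP1* were at 3 counts or fewer in all 12 libraries, and *SOX2* was at 0 in L1_F_DMSO and L1_F_ML355 but at 128 to 446 counts elsewhere. The summed level of the 10 markers was 1111 to 1144 CPM in L1_F_DMSO, 3425 to 5183 CPM in L1_F_ML355, 11.6 to 20.5 CPM in the libraries labelled NVR and 22.8 to 28.2 CPM in CTRL_DMSO, with *KRT17* making up most of the first 2 ranges.

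Arachidonic acid is held in membrane phospholipids and is set free mainly by cytosolic phospholipase A2, the product of *PLA2G4A*. Cyclooxygenases turn it into prostaglandin H2, the parent of prostaglandins and thromboxane, whereas lipoxygenases add oxygen at set carbons and give hydroperoxides that become HETEs, leukotrienes or, in the epidermis, hepoxilin-like barrier lipids. ALOX5 needs the membrane protein ALOX5AP to reach its substrate, and LTA4H makes leukotriene B4 from its product. *ALOX12* is best known from platelets, *ALOX5* and *ALOX5AP* from leukocytes, *ALOX12B* and *ALOXE3* from differentiating skin, and *PTGS2* as an inducible gene of inflammation and of many carcinomas.

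None of the 10 genes was below detection, taken as at most 3 counts in each of the 12 libraries, and all 10 passed the filter on low counts and were tested among 17849 genes. However, only *ALOX12*, *ALOXE3*, *PTGS2*, *LTA4H* and *PLA2G4A*, 5 of the 10, reached 10 counts or more throughout. The remaining 5 entered the test through the groups in which they were higher. *ALOX15B* was at 3 counts or fewer in every library of 3 groups, *ALOX12B* was at 0 throughout L1_F_ML355, and *ALOX5AP* had at most 2 counts in L1_F_DMSO. *ALOX15*, the 15-lipoxygenase gene that is not among the 10, reached 8 counts in 1 library labelled L1_F_ML355 and 3 at most elsewhere, and was removed by the filter. *GPR31*, which encodes a receptor for 12S-HETE, was at 0 counts in all 12 libraries, which allows levels up to between 0.111 and 0.172 CPM, depending on the library, by counting error only.

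The windows before the RefSeq start sites are shown for 5 genes on which the results below turn, to set the sequence beside the response. RefSeq held promoters for 8 of the 10 genes (GRCh38.p14; 250 bases before the start site are given, and for *PTGS1* the first of 2 start sites). Capitals mark exact matches on either strand to 5 motifs. They are TATAAA (a core promoter element), CACGTG (an E-box) and TGACG (the core of a cAMP response element). The others are GGGCGG (a GC box) and the NF-kB consensus. Matches to different motifs did not overlap in these windows. A match is a description of letters and not of a bound site.
PLA2G4A, chr1:186828699-186828948, plus strand: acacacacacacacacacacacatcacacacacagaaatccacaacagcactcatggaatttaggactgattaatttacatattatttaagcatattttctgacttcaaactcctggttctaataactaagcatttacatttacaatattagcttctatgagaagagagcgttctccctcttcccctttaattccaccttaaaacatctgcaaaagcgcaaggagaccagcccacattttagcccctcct
PTGS1, chr9:122370283-122370532, plus strand: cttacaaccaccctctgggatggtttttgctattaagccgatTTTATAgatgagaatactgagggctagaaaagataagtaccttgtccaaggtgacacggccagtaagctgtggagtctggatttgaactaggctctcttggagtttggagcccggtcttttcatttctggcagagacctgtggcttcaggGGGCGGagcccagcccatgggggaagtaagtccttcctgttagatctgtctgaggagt
PTGS2, chr1:186680424-186680673, minus strand: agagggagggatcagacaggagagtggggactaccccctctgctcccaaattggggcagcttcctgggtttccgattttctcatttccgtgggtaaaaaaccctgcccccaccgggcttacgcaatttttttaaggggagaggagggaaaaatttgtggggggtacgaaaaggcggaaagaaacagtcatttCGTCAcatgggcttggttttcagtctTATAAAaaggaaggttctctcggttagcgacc
ALOX12, chr17:6995799-6996048, plus strand: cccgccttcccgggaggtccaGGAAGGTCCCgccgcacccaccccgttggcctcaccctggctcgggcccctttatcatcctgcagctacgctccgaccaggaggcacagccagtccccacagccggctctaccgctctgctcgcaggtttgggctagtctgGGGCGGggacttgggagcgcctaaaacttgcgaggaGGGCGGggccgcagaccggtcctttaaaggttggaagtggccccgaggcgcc
ALOX12B, chr17:8087717-8087966, minus strand: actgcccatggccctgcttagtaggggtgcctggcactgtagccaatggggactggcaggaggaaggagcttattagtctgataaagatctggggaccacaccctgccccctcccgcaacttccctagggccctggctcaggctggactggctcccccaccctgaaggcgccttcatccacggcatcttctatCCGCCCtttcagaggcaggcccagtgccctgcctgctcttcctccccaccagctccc

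Of these windows, only that of *PTGS2* had TATAAA on the coding strand, beginning 32 bases before the start, with TGACG on the opposite strand at 58 bases. *PTGS1* had TATAAA on the opposite strand 208 bases before the start and GGGCGG at 58 bases. *ALOX12* had GGGCGG at 88 and 52 bases and an NF-kB consensus match on the opposite strand at 229 bases. *ALOX12B* had GGGCGG on the opposite strand at 57 bases. The *PLA2G4A* window held no match to any of the 5 motifs. Over 35116 RefSeq promoter windows of the same length, 10.7% held TATAAA, 6.3% CACGTG, 21.2% TGACG, 42.6% GGGCGG and 10.0% the NF-kB consensus.

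With ML355, the direct test of the 12-lipoxygenase inhibitor, 8 of the 10 genes differed from L1_F_DMSO at an edgeR adjusted p under 0.01, 2 higher (*ALOX12* and *LTA4H*) and 6 lower (*PLA2G4A*, *PTGS1*, *PTGS2*, *ALOX5*, *ALOX12B* and *ALOX15B*). Of all genes tested, 44.8% were called in this comparison, 21.3% higher and 23.5% lower, and the median log2 fold change was -1.09 over the 10 genes (-0.74 with genes at the floor in 1 group set to their lower bound) and 0.00 over all genes. Between L1_F_DMSO and CTRL_DMSO, 8 of the 10 differed, 4 higher and 4 lower, where 68.7% of all genes were called (32.5% higher, 36.2% lower). The libraries labelled NVR differed from L1_F_DMSO in 9 of the 10 genes, 5 higher and 4 lower, against 73.6% of all genes (38.2% higher, 35.4% lower). They differed from CTRL_DMSO in 3, all higher, against 29.8% of all genes (14.5% higher, 15.3% lower). The counts of members called thus stand on wide backgrounds, above all across the 2 sets of libraries. In the first 3 comparisons they include *ALOX15B*, which passed the filter on low counts through L1_F_DMSO alone. The count between L1_F_DMSO and CTRL_DMSO also includes *ALOX5AP*, which passed this filter only with the CTRL_DMSO libraries. The first 3 comparisons share the L1_F_DMSO libraries, so that they are not independent of one another. In these cultures fewer cells of one kind and less RNA per cell cannot be told apart.

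**Figure D1:**
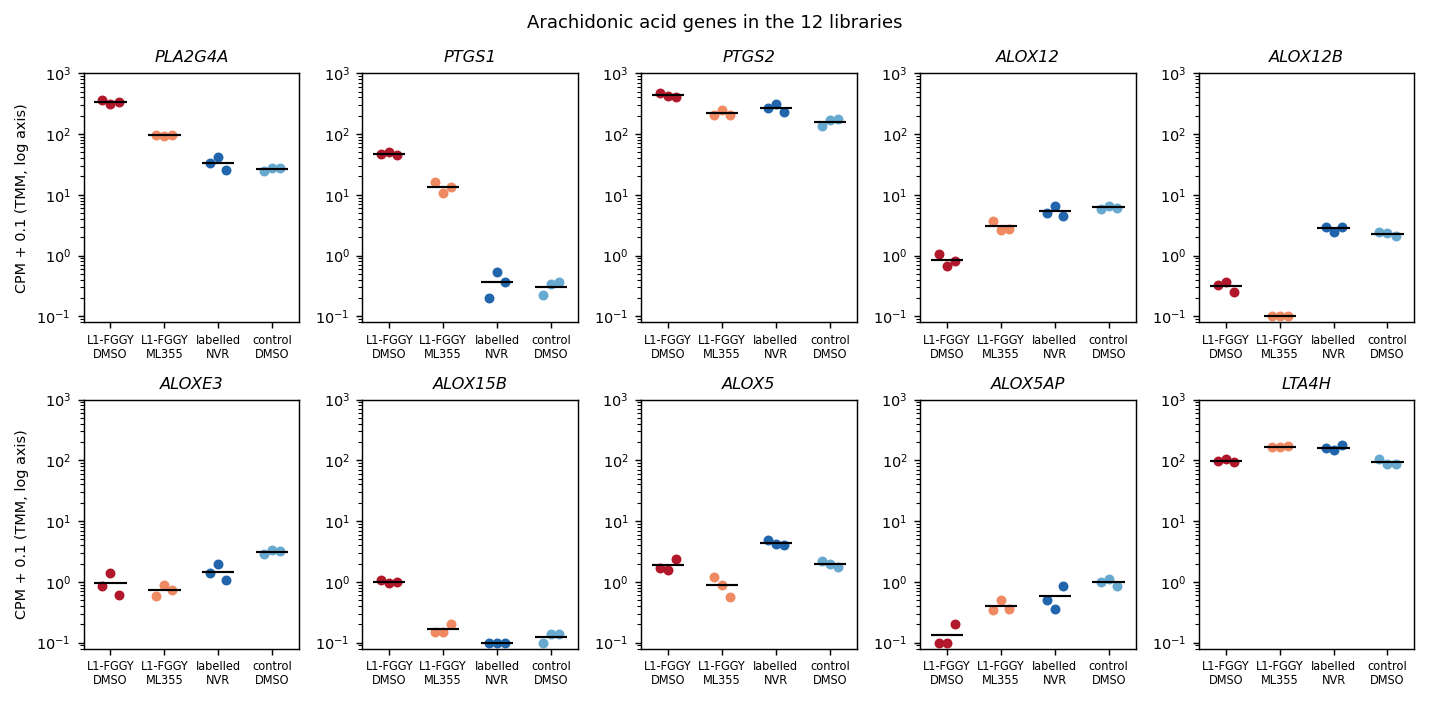
Levels of the 10 genes in the 12 libraries, as CPM (counts scaled to the TMM-adjusted library size) plus 0.1 on a log axis; each point is 1 culture and the bar is the mean of 3. *PLA2G4A*, *PTGS1* and *ALOX15B* were highest in L1_F_DMSO, where *ALOX12* was lowest, and *PTGS1* was near the floor of the plot in the libraries labelled NVR and the controls.

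*PLA2G4A* (ENSG00000116711, chr1:186828949-186988981, plus strand, GENCODE 44 on GRCh38), the phospholipase that frees arachidonic acid, had 6276, 6030 and 6569 counts in L1_F_DMSO and 1954, 1800 and 1859 in L1_F_ML355. It had 655, 1149 and 469 counts in the libraries labelled NVR and 587, 701 and 725 in CTRL_DMSO. The first 2 groups overlapped neither each other nor the rest, whereas the libraries labelled NVR overlapped the controls. In CPM it was at 336 ± 21.9 (SD, n = 3) in L1_F_DMSO and 95.6 ± 2.57 (SD, n = 3) with ML355, a fall of 3.52-fold (log2 fold change -1.81, SE 0.14, edgeR adjusted p = 3.65e-08). Against 26.6 ± 1.70 CPM (SD, n = 3) in CTRL_DMSO, the level in L1_F_DMSO was 12.6-fold higher (log2 fold change 3.66, SE 0.16, edgeR adjusted p = 4.26e-12). Each ML355 library thus lay between the L1_F_DMSO libraries and the controls. At 33.7 ± 8.44 CPM (SD, n = 3), the libraries labelled NVR were 9.95-fold lower than L1_F_DMSO (log2 fold change -3.31, SE 0.15, edgeR adjusted p = 9.59e-12), and their log2 fold change of 0.34 (SE 0.14, edgeR adjusted p = 0.0648) against CTRL_DMSO did not pass. Without replicate 3 of the libraries labelled NVR the last value was 0.51 and passed (edgeR adjusted p = 0.00356).

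*PTGS1* (ENSG00000095303, chr9:122370530-122395703, plus strand), the cyclooxygenase usually regarded as constitutive, was nearly absent outside the L1_F_DMSO and L1_F_ML355 libraries. Its counts were 822, 950 and 907 in L1_F_DMSO, 325, 206 and 255 in L1_F_ML355, 2, 12 and 5 in the libraries labelled NVR, and 3, 6 and 7 in CTRL_DMSO. The mean level fell from 47.6 ± 2.16 to 13.3 ± 2.70 CPM (SD, n = 3 each) with ML355, by 3.57-fold (log2 fold change -1.83, SE 0.18, edgeR adjusted p = 3.67e-07). It was 219-fold higher in L1_F_DMSO than in CTRL_DMSO, where it was at 0.210 ± 0.0744 CPM (log2 fold change 7.77, SE 0.28, edgeR adjusted p = 7.16e-13). This was the largest fold between these groups among the members with no group at the floor, and it rests on 3 to 7 counts per library on the control side. Compared with L1_F_DMSO, those labelled NVR had 162-fold less *PTGS1* (log2 fold change -7.34, SE 0.28, edgeR adjusted p = 1.01e-12) and overlapped the controls in it (log2 fold change 0.44, SE 0.50, edgeR adjusted p = 0.506).

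*PTGS2* (ENSG00000073756, chr1:186671791-186680922, minus strand), the inducible cyclooxygenase, was strongly expressed in every library. Its counts were 8138, 8123 and 8002 in L1_F_DMSO, 4191, 4740 and 3858 in L1_F_ML355, 5296, 8369 and 4186 in the libraries labelled NVR, and 3180, 4290 and 4682 in CTRL_DMSO. L1_F_DMSO lay above each other group in every library once scaled. The level fell from 432 ± 32.1 to 218 ± 22.9 CPM (SD, n = 3 each) with ML355, by 1.99-fold (log2 fold change -0.99, SE 0.14, edgeR adjusted p = 1.65e-05). L1_F_DMSO was 2.70-fold above the 160.4 ± 23.8 CPM (SD, n = 3) of CTRL_DMSO (log2 fold change 1.43, SE 0.14, edgeR adjusted p = 1.03e-07). The span of *PTGS2* over the groups was thus small beside that of *PTGS1*. With 268 ± 40.2 CPM (SD, n = 3), those labelled NVR were 1.61-fold lower than L1_F_DMSO (log2 fold change -0.69, SE 0.14, edgeR adjusted p = 0.00023) and 1.67-fold higher than CTRL_DMSO (log2 fold change 0.74, SE 0.14, edgeR adjusted p = 0.000488). The second of these calls did not pass when libraries were scaled by their totals alone (log2 fold change 0.59, edgeR adjusted p = 0.0116).

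Per kb of exon, *PTGS1* made up 9.48% ± 0.652 (SD, n = 3) of the 2 cyclooxygenase levels in L1_F_DMSO and 5.57% ± 1.47 (SD, n = 3) with ML355. It made up 0.0949% ± 0.0524 in the libraries labelled NVR and 0.121% ± 0.0279 in CTRL_DMSO (SD, n = 3 each), so that cyclooxygenase mRNA was chiefly *PTGS2* in all groups. *PTGS2* and *PLA2G4A* lie 148.0 kb apart on chromosome 1. *PACERR*, an antisense RNA at the *PTGS2* start, shares 219 bases (4.0%) with the exons of *PTGS2*, and had 153 to 226 counts in L1_F_DMSO, 96 to 128 in L1_F_ML355, 32 to 58 in the libraries labelled NVR and 23 to 48 in CTRL_DMSO. Whether counting used the strand is not given in the sources used here, and reads of the shared bases cannot be assigned to one of the pair. Like these 3 genes, 8 fibroblast markers had their highest summed level in L1_F_DMSO, at 341 to 359.8 CPM. The sum was 112 to 122 CPM in L1_F_ML355, 21.8 to 26.0 CPM in the libraries labelled NVR and 24.9 to 30.0 CPM in CTRL_DMSO. *PTGS2* parted from it in the libraries labelled NVR, where *PTGS2* was called higher than in CTRL_DMSO. Of these markers, *COL1A2* and *POSTN* were at 3 counts or fewer in every group, *DCN* and *LUM* in the last 2 groups, and *PDGFRB* in L1_F_ML355. *THY1* went against the sum, with 0 to 1 counts in L1_F_DMSO and L1_F_ML355, 49 to 72 in the libraries labelled NVR and 106 to 124 in CTRL_DMSO. The part of these markers in the result was not tested.

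*ALOX12* (ENSG00000108839, chr17:6996049-7010754, plus strand), which encodes the platelet-type 12-lipoxygenase that ML355 inhibits, was weakly expressed and lowest in the L1_F_DMSO libraries. It had 17, 11 and 14 counts in L1_F_DMSO, 73, 50 and 50 in L1_F_ML355, 99, 174 and 81 in the libraries labelled NVR, and 139, 165 and 155 in CTRL_DMSO. L1_F_DMSO overlapped no other group, and each ML355 library was above each L1_F_DMSO library and below each control. The level rose from 0.753 ± 0.203 to 2.93 ± 0.576 CPM (SD, n = 3 each) with the inhibitor, by 3.90-fold (log2 fold change 1.96, SE 0.28, edgeR adjusted p = 1.77e-05). In CTRL_DMSO it was at 6.08 ± 0.324 CPM (SD, n = 3), so that L1_F_DMSO was 8.07-fold lower (log2 fold change -3.01, SE 0.26, edgeR adjusted p = 2.67e-08). The target gene of ML355 was thus lower at the RNA level in the L1-FGGY cells than in the controls, and higher in L1-FGGY cells given the inhibitor. The libraries labelled NVR, at 5.28 ± 1.04 CPM (SD, n = 3), were 7.04-fold above L1_F_DMSO (log2 fold change 2.82, SE 0.27, edgeR adjusted p = 5.39e-08) and overlapped the controls (log2 fold change -0.20, SE 0.21, edgeR adjusted p = 0.472). These calls and their directions held under every alternative that was run.

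The antisense gene *ALOX12-AS1* shares 491 bases (18.5%) with the exons of *ALOX12* and had 30 to 61 counts in every library, which is more than *ALOX12* itself had in L1_F_DMSO. Reads of the shared bases cannot be assigned to one of the 2 without the strand. The summed level of 8 platelet markers was 1.89 to 2.73 CPM in L1_F_DMSO, 0.946 to 1.28 CPM in L1_F_ML355, 9.70 to 12.9 CPM in the libraries labelled NVR and 13.2 to 16.1 CPM in CTRL_DMSO. It was therefore low where *ALOX12* was low in DMSO, but not higher with ML355. Of these markers *GP9* was at 3 counts or fewer in all groups, and *PPBP*, *PF4* and *GP6* in L1_F_DMSO and L1_F_ML355; their part in the result was not tested.

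*ALOX12B* (ENSG00000179477, chr17:8072636-8087716, minus strand), the epidermal 12R-lipoxygenase, had 4, 5 and 3 counts in L1_F_DMSO and 0 in each ML355 library. It had 57, 64 and 53 counts in the libraries labelled NVR and 55, 57 and 53 in CTRL_DMSO. The ML355 group thus lay at the floor, and the fall was at least 1.40-fold when 3 counts per library are taken as the limit (0.215 ± 0.0574 CPM in L1_F_DMSO, SD, n = 3; edgeR adjusted p = 0.000743). Against 2.19 ± 0.144 CPM (SD, n = 3) in CTRL_DMSO, L1_F_DMSO was 10.0-fold lower (log2 fold change -3.32, SE 0.37, edgeR adjusted p = 1.21e-06). At 2.71 ± 0.296 CPM (SD, n = 3), the libraries labelled NVR were 12.3-fold above L1_F_DMSO (log2 fold change 3.63, SE 0.37, edgeR adjusted p = 3.64e-07). They did not pass against CTRL_DMSO (log2 fold change 0.30, SE 0.26, edgeR adjusted p = 0.378). *ALOX12* and *ALOX12B*, both called 12-lipoxygenase genes, were therefore lower together in L1_F_DMSO than in the controls but parted with ML355, one higher and one at 0. The antisense gene ENSG00000214999 shares 736 bases (26.8%) with the exons of *ALOX12B* and had 0 to 2 counts in L1_F_DMSO, 0 in L1_F_ML355, 37 to 56 in the libraries labelled NVR and 46 to 65 in CTRL_DMSO, and reads of their shared bases too cannot be assigned without the strand.

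Because 2 genes bear the name, the 12-LOX primer pair that the study lists for human quantitative PCR was matched to GENCODE 44 transcripts. It is printed because its letters match 1 of these genes and not the other; all bases are in lower case since none is singled out.
12-LOX forward: ccatctcactgaccattgtgg
12-LOX reverse: caggcggatgatgatgagc

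Both primers matched *ALOX12B* without a mismatch, the forward one in exon 1 (chr17:8087361-8087381) and the reverse one in exon 2 (chr17:8086161-8086179) of its minus-strand transcript, with a product of 146 bases. In the 3 transcripts of *ALOX12* the nearest stretch differed from the forward primer at 7 of 21 bases and from the reverse primer at 7 of 19. The listed 5-LOX pair matched exons 10 and 13 of *ALOX5* without a mismatch, with a product of 416 bases. The listed 15-LOX pair matched no GENCODE 44 transcript exactly, and its nearest stretches in *ALOX15* differed at 5 of 23 and 8 of 22 bases. Amplification itself was not tested here, and typing errors in the listed sequences cannot be told apart from the assays used.

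*ALOXE3* (ENSG00000179148, chr17:8095900-8119047, minus strand), which encodes the hepoxilin-forming partner of ALOX12B, lies 8.2 kb from *ALOX12B*. It had 13, 25 and 10 counts in L1_F_DMSO, 10, 15 and 12 in L1_F_ML355, 26, 50 and 18 in the libraries labelled NVR, and 65, 83 and 82 in CTRL_DMSO. Only the controls stood clear of the rest. With ML355 the log2 fold change was -0.43 (SE 0.41, edgeR adjusted p = 0.382) and the groups overlapped, so that no response was detectable at this depth. L1_F_DMSO was 3.55-fold below CTRL_DMSO, at 0.855 ± 0.416 against 3.04 ± 0.271 CPM (SD, n = 3 each; log2 fold change -1.83, SE 0.35, edgeR adjusted p = 0.000162). Those labelled NVR, at 1.38 ± 0.437 CPM (SD, n = 3), lay between them, with a log2 fold change of 0.71 (SE 0.37, edgeR adjusted p = 0.0847) against L1_F_DMSO and -1.12 (SE 0.32, edgeR adjusted p = 0.0108) against CTRL_DMSO. The last value was just outside the threshold, and it passed with DESeq2 (adjusted p = 0.00593) and with voom (adjusted p = 0.00552).

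*ALOX15B* (ENSG00000179593, chr17:8039034-8049134, plus strand), the second human 15-lipoxygenase, lies 23.5 kb from *ALOX12B*, and was above the floor only in L1_F_DMSO. It had 17, 16 and 18 counts there, 1, 1 and 2 in L1_F_ML355, 0 in each library labelled NVR, and 0, 1 and 1 in CTRL_DMSO. It was thus higher in L1_F_DMSO than in the controls, where its chromosomal neighbours *ALOX12B* and *ALOXE3* were lower, whereas with ML355 it fell, as did *ALOX12B*. From 0.908 ± 0.0669 CPM (SD, n = 3) in L1_F_DMSO, it was at least 5.92-fold lower with ML355 (edgeR adjusted p = 0.000157) and at least 6.40-fold lower in the libraries labelled NVR (edgeR adjusted p = 4.4e-06). L1_F_DMSO was at least 7.59-fold above CTRL_DMSO (edgeR adjusted p = 1.18e-05). *ALOX15B* passed the filter on low counts through L1_F_DMSO alone, so these p-values add no support beyond the counts given. No fold is given between the libraries labelled NVR and CTRL_DMSO, where both groups were at or under 3 counts.

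*ALOX5* (ENSG00000012779, chr10:45374176-45446119, plus strand), the 5-lipoxygenase that starts leukotriene synthesis, had 28, 28 and 45 counts in L1_F_DMSO and 22, 15 and 9 in L1_F_ML355. It had 95, 111 and 73 counts in the libraries labelled NVR and 50, 48 and 43 in CTRL_DMSO. Those labelled NVR stood above every other library. The level fell from 1.78 ± 0.426 to 0.777 ± 0.306 CPM (SD, n = 3 each) with ML355, by 2.28-fold (log2 fold change -1.19, SE 0.32, edgeR adjusted p = 0.00462). This call was lost without L1_F_DMSO replicate 3 (log2 fold change -0.98, edgeR adjusted p = 0.0288), without L1_F_ML355 replicate 2 (-1.18, edgeR adjusted p = 0.0132) or replicate 3 (-0.94, edgeR adjusted p = 0.023), and in a fit of the 2 groups alone (-1.18, edgeR adjusted p = 0.0176), and is the least secure of the 8. L1_F_DMSO and CTRL_DMSO, the latter at 1.88 ± 0.227 CPM (SD, n = 3), overlapped (log2 fold change -0.07, SE 0.28, edgeR adjusted p = 0.83). At 4.29 ± 0.405 CPM (SD, n = 3) the libraries labelled NVR were 2.40-fold above L1_F_DMSO (log2 fold change 1.26, SE 0.27, edgeR adjusted p = 0.000471) and 2.28-fold above CTRL_DMSO (log2 fold change 1.19, SE 0.26, edgeR adjusted p = 0.00189). The second call did not pass without replicate 1 of the libraries labelled NVR (edgeR adjusted p = 0.0131), CTRL_DMSO replicate 2 (edgeR adjusted p = 0.0114) or CTRL_DMSO replicate 3 (edgeR adjusted p = 0.014).

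*ALOX5AP* (ENSG00000132965, chr13:30713478-30764426, plus strand), which encodes the activating protein of ALOX5, had 0, 0 and 2 counts in L1_F_DMSO, 5, 8 and 5 in L1_F_ML355, 8, 7 and 14 in the libraries labelled NVR, and 21, 26 and 20 in CTRL_DMSO. L1_F_DMSO was below all other libraries, at or under 3 counts. With ML355 the level of 0.307 ± 0.0913 CPM (SD, n = 3) was at least 1.91-fold higher, which did not pass (edgeR adjusted p = 0.0113) but did with voom (adjusted p = 0.00291) and without L1_F_DMSO replicate 3 (edgeR adjusted p = 0.00474), the library with both of its counts. L1_F_DMSO was at least 5.54-fold below CTRL_DMSO, which was at 0.889 ± 0.125 CPM (SD, n = 3; edgeR adjusted p = 5.89e-05). *ALOX5AP* passed the filter on low counts only with the CTRL_DMSO libraries, so this p-value adds no support beyond the counts given. Libraries labelled NVR were at least 2.97-fold above L1_F_DMSO (edgeR adjusted p = 0.00117) and, at 0.476 ± 0.263 CPM (SD, n = 3), did not pass against CTRL_DMSO (log2 fold change -0.94, SE 0.49, edgeR adjusted p = 0.128). As these genes are known from leukocytes, 10 leukocyte markers were summed, at 3.33 to 4.47 CPM in L1_F_DMSO, 2.91 to 4.33 CPM in L1_F_ML355, 12.0 to 15.3 CPM in the libraries labelled NVR and 6.64 to 8.05 CPM in CTRL_DMSO. *CD3E*, *MS4A1*, *LYZ*, *FCER1A* and *MPO* were at 3 counts or fewer in every group, and *PTPRC*, which encodes CD45, went against the sum, with 13 to 33 counts in L1_F_DMSO, 42 to 71 in L1_F_ML355 and 0 in the last 2 groups; their part in the result was not tested.

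*LTA4H* (ENSG00000111144, chr12:96000753-96043520, minus strand), the hydrolase that makes leukotriene B4 and is expressed in most cells, had 1728, 1975 and 1851 counts in L1_F_DMSO, 3380, 3210 and 3223 in L1_F_ML355, 3222, 3992 and 3237 in the libraries labelled NVR, and 2458, 2237 and 2262 in CTRL_DMSO. Scaled to CPM, both inhibitor-labelled groups stood above both DMSO groups. The level rose from 98.8 ± 5.31 to 167 ± 2.07 CPM (SD, n = 3 each) with ML355, by 1.69-fold (log2 fold change 0.76, SE 0.11, edgeR adjusted p = 1.74e-05). The DMSO groups overlapped, CTRL_DMSO being at 92.6 ± 9.40 CPM (SD, n = 3; log2 fold change 0.09, SE 0.11, edgeR adjusted p = 0.432). At 162 ± 14.9 CPM (SD, n = 3), the libraries labelled NVR were 1.64-fold above L1_F_DMSO (log2 fold change 0.72, SE 0.11, edgeR adjusted p = 1.15e-05) and 1.75-fold above CTRL_DMSO (log2 fold change 0.81, SE 0.11, edgeR adjusted p = 2.22e-05). *LTA4H* was the 1 gene of the 10 that was higher in all 3 comparisons of an inhibitor label with DMSO.

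**Figure D2:**
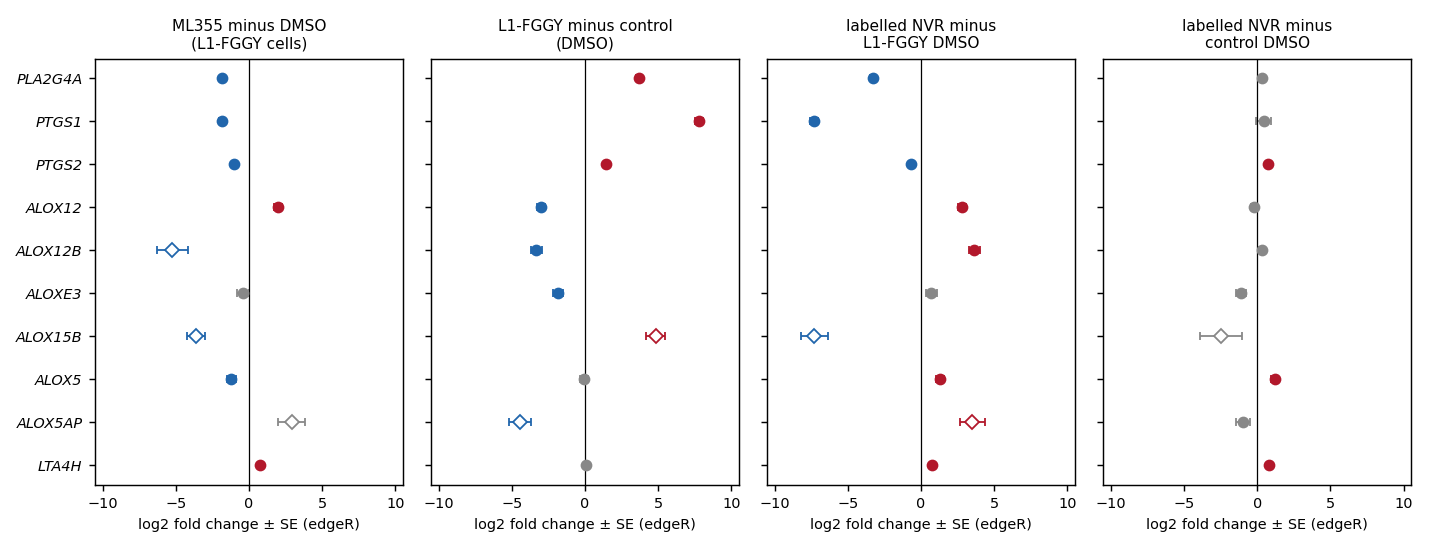
Log2 fold change ± SE (edgeR) of the 10 genes in the 4 comparisons; red marks genes called higher, blue lower and grey not called at an adjusted p of 0.01. Open diamonds mark genes with 3 counts or fewer in every library of at least 1 of the 2 groups, whose position depends on the prior count. With ML355, *ALOX12* (1.96) and *LTA4H* (0.76) lie right of zero among the genes called, and the rightmost panel holds 3 called genes, all higher.

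Levels of different genes were compared per kb of annotated exon. In L1_F_DMSO the order was led by *PLA2G4A* at 117 ± 7.60 CPM per kb, followed by *PTGS2* at 78.8 ± 5.85, *LTA4H* at 13.3 ± 0.717 and *PTGS1* at 8.23 ± 0.374 CPM per kb (SD, n = 3 each), and these 4 did not overlap one another. All lipoxygenases lay far below, from *ALOX5* at 0.478 ± 0.114 down to *ALOX12B* at 0.0781 ± 0.0209 CPM per kb (SD, n = 3 each), and *ALOX5AP* came last. Among neighbours in that order, *ALOX15B* and *ALOX12*, *ALOX12* and *ALOXE3*, and *ALOX12B* and *ALOX5AP* overlapped. With ML355, *PTGS2* (39.7 ± 4.17 CPM per kb) came before *PLA2G4A* (33.2 ± 0.893 CPM per kb) and *LTA4H* (22.6 ± 0.280 CPM per kb; SD, n = 3 each), and *ALOX12* was the highest lipoxygenase at 1.11 ± 0.217 CPM per kb (SD, n = 3), with *ALOX5*, *ALOX5AP* and *ALOXE3* overlapping one after another. In the libraries labelled NVR and in CTRL_DMSO alike, the order began with *PTGS2*, *LTA4H*, *PLA2G4A* and *ALOX12*. There *ALOX12* was the most strongly expressed lipoxygenase, at 1.99 ± 0.392 and 2.29 ± 0.122 CPM per kb (SD, n = 3 each), and *PTGS1* and *ALOX15B* took the last 2 places. The neighbours that overlapped were *ALOXE3* and *ALOX5AP* in the libraries labelled NVR, and *ALOXE3* with *ALOX12B* and *ALOX5AP* with *ALOX5* in CTRL_DMSO.

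**Figure D3:**
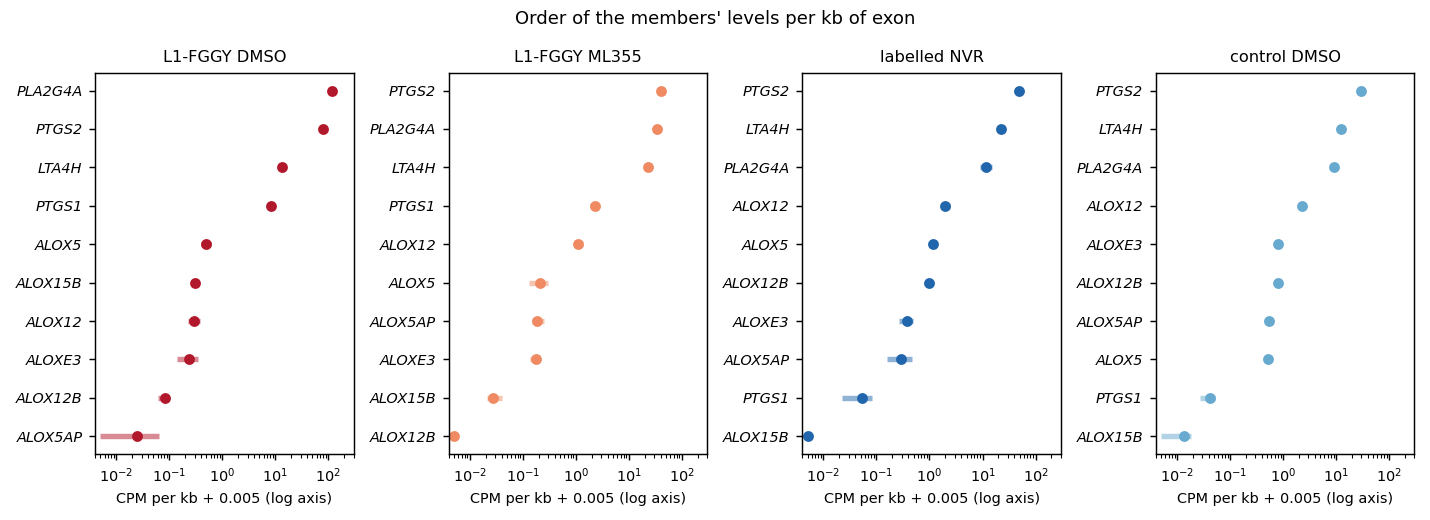
The 10 genes ordered by their mean level per kb of exon in each group (CPM per kb plus 0.005, log axis); points are means of 3 libraries and bars run from the lowest to the highest library. *PLA2G4A* leads in L1_F_DMSO and *PTGS2* in the other groups, and *PTGS1* drops from place 4 in L1_F_DMSO and L1_F_ML355 to place 9 in the others.

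The same tests were read for 113 further genes of arachidonic acid metabolism, of which 77 were tested, 14 had low counts and 22 were below detection. With ML355, 12 of the 77 were higher and 25 lower, where 44.8% of all genes were called, 21.3% higher and 23.5% lower (median log2 fold change -0.09, or -0.14 over the 71 above the floor in at least 1 group, with lower bounds). Genes listed for reacylation, the return of fatty acids and not of arachidonic acid alone to phospholipids, fell in 6 of 11 tested, and 1 was higher. Among those that fell were *LPCAT1* (log2 fold change -1.42, SE 0.10, edgeR adjusted p = 1.64e-08), *LPCAT2* (-1.88, SE 0.15, edgeR adjusted p = 4.63e-08) and *MBOAT7* (-1.23, SE 0.11, edgeR adjusted p = 1.06e-07). Of 9 prostanoid synthases tested, 5 fell and none rose at this threshold; *PTGES*, the inducible prostaglandin E synthase that acts after the cyclooxygenases, fell from 529 to 216 CPM (log2 fold change -1.29, SE 0.12, edgeR adjusted p = 2.5e-07), *AKR1B1*, an aldose reductase with prostaglandin F synthase activity, from 1885 to 405 CPM (-2.22, SE 0.13, edgeR adjusted p = 2.23e-09), and *AKR1C3* from 191 to 74.2 CPM (-1.36, SE 0.13, edgeR adjusted p = 2.24e-07). The 5 prostanoid synthases called with ML355 thus fell, as did *PTGS1* and *PTGS2*, and 4 were not called. Between L1_F_DMSO and CTRL_DMSO, where *PTGS1* and *PTGS2* were higher, 5 synthases were lower and 1 was higher. *HPGD*, which inactivates prostaglandins, was at 3 counts or fewer with ML355 and at least 13.3-fold lower than in L1_F_DMSO (edgeR adjusted p = 5.41e-09).

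The following counts by role stand on the same background with ML355, 44.8% of all genes called, 21.3% higher and 23.5% lower. Of 4 prostanoid and 3 leukotriene or HETE receptors tested, 1 rose and 2 fell with ML355. *TBXA2R*, the thromboxane receptor, fell (log2 fold change -1.75, SE 0.19, edgeR adjusted p = 1.32e-06), as did *CYSLTR1*, a cysteinyl leukotriene receptor (-4.34, SE 0.42, edgeR adjusted p = 2.84e-06), whereas *PTGER4*, a prostaglandin E2 receptor, rose (0.84, SE 0.14, edgeR adjusted p = 8.73e-05). *CYSLTR1* was at 4.94 CPM in L1_F_DMSO, 0.238 CPM with ML355 and 0 CPM in the libraries labelled NVR and in CTRL_DMSO. It passed the filter on low counts through L1_F_DMSO alone, so its p-value adds no support beyond these levels. Of the 14 other genes of arachidonic acid release that were tested, 2 rose and 3 fell with ML355, led by *ABHD6* (-1.75, SE 0.17, edgeR adjusted p = 4.14e-07), *PLA2G12A* (1.18, SE 0.12, edgeR adjusted p = 5.96e-07) and *DAGLA* (-1.85, SE 0.24, edgeR adjusted p = 9.25e-06). Of 8 genes of cysteinyl leukotriene synthesis, 1 rose (*COTL1*, which encodes a binding partner of ALOX5, 0.90, SE 0.15, edgeR adjusted p = 0.000115) and 2 fell (*MGST1* and *MGST3*, -0.78 and -0.70). Of 5 partners of the epidermal lipoxygenases, 3 fell, with *TGM1*, the keratinocyte transglutaminase, going from 3.11 to 0.446 CPM (-2.79, SE 0.42, edgeR adjusted p = 3.19e-05). Of 6 genes that set peroxide tone, *GPX4* and *PRDX6* rose (0.80 and 0.46) and *GPX3* fell (-2.78). Of 7 CYP and epoxide hydrolase genes, *EPHX2* rose (1.00) and *EPHX1* fell (-0.60), and of 4 genes of arachidonic acid synthesis *FADS1* and *ELOVL5* rose (0.43 and 0.48), all at an edgeR adjusted p under 0.01.

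**Figure D4:**
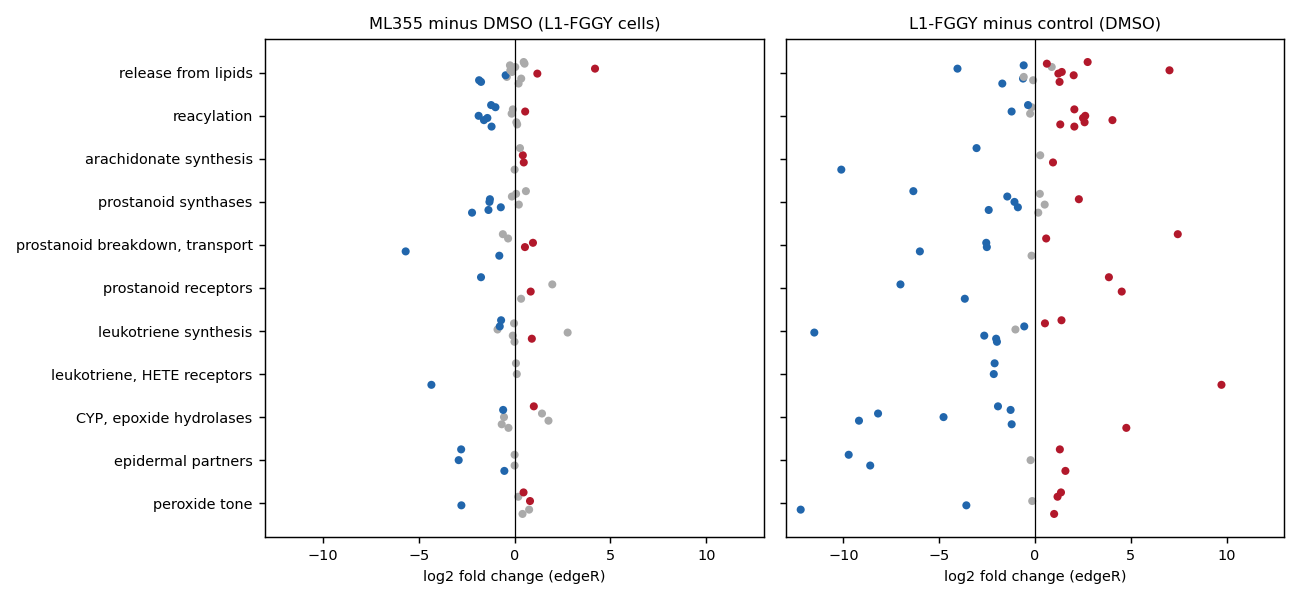
Log2 fold change (edgeR) of the 77 further pathway genes tested, 1 point per gene, by role, with ML355 (left) and between L1_F_DMSO and CTRL_DMSO (right); red points were called higher, blue lower and grey not called at an adjusted p of 0.01. On the left no prostanoid synthase is red and 6 of 11 reacylation genes are blue. On the right 7 of these 11 are red and 6 of 7 CYP and epoxide hydrolase genes are blue. Of all genes tested, 44.8% were called in the left comparison and 68.7% in the right.

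Between L1_F_DMSO and CTRL_DMSO, 29 of the 77 were higher and 35 lower (median log2 fold change -0.24; -0.11 over all genes), where 68.7% of all genes were called, 32.5% higher and 36.2% lower; the counts by role below stand on the same background. Reacylation genes were higher in 7 of 11 and lower in 2, led by *LPCAT1* (5.66-fold, SE 0.11 on the log2 scale, edgeR adjusted p = 5.32e-12) and *ACSL4* (log2 fold change 2.58, SE 0.14, edgeR adjusted p = 6.8e-11). Of 9 prostanoid synthases, only *PTGES* was higher, at 529 against 109 CPM (2.28, SE 0.13, edgeR adjusted p = 9.36e-11), and 5 were lower, with *AKR1C3* first (-2.42, SE 0.13, edgeR adjusted p = 7.53e-11). *HPGD* was at 2.04 CPM in L1_F_DMSO and 132 CPM in CTRL_DMSO (-6.01, SE 0.15, edgeR adjusted p = 1.11e-14). Of the other prostaglandin E synthase genes, *PTGES2* was lower (-1.45, edgeR adjusted p = 3.28e-06) and *PTGES3* did not pass (0.25, edgeR adjusted p = 0.0458). Of 4 prostanoid receptors, *PTGER4* (4.52, SE 0.18, edgeR adjusted p = 1.65e-12) and *TBXA2R* (3.85, SE 0.22, edgeR adjusted p = 1.53e-10) were higher, and 2 were lower, *PTGER2* by at least 8.90-fold (edgeR adjusted p = 0.000432) and *PTGFR* by at least 4.72-fold (edgeR adjusted p = 1.26e-05). Of 7 CYP and epoxide hydrolase genes 1 was higher and 6 were lower, led by the fatty acid omega-hydroxylase genes *CYP4F11* (-9.19, SE 0.37, edgeR adjusted p = 2.3e-12) and *CYP4F3*, at least 107.6-fold lower (edgeR adjusted p = 3.53e-12). Of 8 genes of leukotriene synthesis 2 were higher and 5 lower, among them *GGT5*, at 0 CPM in L1_F_DMSO and at least 107-fold lower than in CTRL_DMSO (edgeR adjusted p = 1.09e-10).

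The libraries labelled NVR showed 37 of the 77 higher and 28 lower than L1_F_DMSO (median log2 fold change 0.23; 0.08 over all genes), where 73.6% of all genes were called. They showed 24 higher and 13 lower than CTRL_DMSO (median 0.24, or 0.28 over the 74 above the floor with lower bounds; 0.00 over all genes), where 29.8% of all genes were called. Without CTRL_DMSO replicate 2 the second count of 37 genes fell to 21, and that over all genes from 5316 to 3506. Against CTRL_DMSO, the comparison inside 1 set of libraries, *PTGES* was higher at 381 against 109 CPM (log2 fold change 1.81, SE 0.12, edgeR adjusted p = 3e-08) and *HPGD* lower at 58.3 against 132 CPM (-1.18, SE 0.11, edgeR adjusted p = 7.13e-07), while *PTGS2* was higher as given above. All 6 CYP and epoxide hydrolase genes called were higher, with *CYP4F12* (2.06, SE 0.18, edgeR adjusted p = 4.32e-07) and *EPHX2* (1.36, SE 0.13, edgeR adjusted p = 7.54e-07) first. *FADS1* and *FADS2*, the desaturases of arachidonic acid synthesis, were lower (-0.93, SE 0.11, edgeR adjusted p = 7.84e-06, and -0.87, SE 0.11, edgeR adjusted p = 1.72e-05).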

How the data were processed

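Reads of 12 H520 cultures had been aligned to hg38 with STAR 2.5.3a and counted per gene with HTSeq 0.11.2 by the authors, per the submitters' processing notes, and the deposited values are raw counts, whole numbers for each Ensembl gene, with no scaling. Which annotation was used, whether counting was stranded and how multiply mapped reads were handled are not given in the sources used here. The labels name a TruSeq kit. Column headings without a cell prefix were mapped by treatment and number, those that name DMSO alone to the controls. Of 58302 gene rows, 57532 matched GENCODE 44, which gave symbols, positions and exon lengths (the union of annotated exons).

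Counts were tested in R 4.3.3 with edgeR 4.0.16 (filterByExpr, TMM, robust quasi-likelihood fit of 4 group means, Benjamini-Hochberg adjustment over 17849 genes, adjusted p under 0.01, the threshold in the study's methods). SE is the log2 fold change over the root of the F statistic. Against a group at or under 3 counts in every library, folds are lower bounds against 3 counts per library. DESeq2 1.42.0, voom of limma 3.58.1 and other alternatives stand in the closing section. The scripts were tested on simulated data. Python 3.11.15 with pandas 2.3.3, numpy 2.4.6 and matplotlib 3.10.9 made tables and figures. Named were all 10 genes, *ALOX15*, *GPR31* and *FGGY*, and, of called genes in each wider list, up to 3 with the smallest p for ML355 and up to 2 for other comparisons. The genes and lists were chosen with earlier results of these data known.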

Additional observations from a re-analysis of the deposited data

How the results depend on the processing

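Of 535 values of the 10 genes' log2 fold changes under the alternatives, 509 kept their direction and their side of the threshold, 8 no longer passed, 11 newly passed and 7 changed sign, all 7 among values that were not called; 30 of the 40 changes were the same throughout. The changes of sign concerned *ALOXE3* with ML355 (range with 1 library left out -0.721 to 0.016), *ALOX5* between L1_F_DMSO and CTRL_DMSO (-0.28 to 0.056 with 1 library left out, 0.018 with library size alone), *LTA4H* in the same comparison (-0.007 with at least 10 counts in every library), and *PTGS1* between the libraries labelled NVR and CTRL_DMSO (-0.201 to 0.803 with 1 library left out). Requiring at least 10 counts in every library leaves 5 of the 10 genes to test, and 4 were called in each of the first 3 comparisons. Of the wider pathway it leaves 52 genes. Among these, 40 were called between L1_F_DMSO and CTRL_DMSO and 38 between the libraries labelled NVR and L1_F_DMSO. The share of all genes called under this limit is not given here. With the main filter it was 44.8%, 68.7% and 73.6% in the first 3 comparisons. A further limit of 1 on the size of the log2 fold change left 4590 genes and 20 of the wider pathway with ML355, and 2344 genes, 16 of the wider pathway and 1 of the 10 genes (*ALOX5*) between the libraries labelled NVR and CTRL_DMSO. With 1 library left out, the counts of the last comparison ran from 3506 to 6106 over all genes and from 21 to 40 in the wider pathway. The cause was not tested where the construction of the alternative does not give it. With the replicate number as a block, 8, 8, 9 and 4 of the 10 genes were called in the 4 comparisons. The last included *ALOXE3* (edgeR adjusted p = 0.00801). Of all genes, 7583, 11979, 12874 and 4754 were then called. Same-numbered libraries deviated with correlations across genes of -0.354 to 0.17, with no comparison above 0.1 in all 3 pairs. Such correlations, of deviations from means of 3 libraries, cannot decide whether same-numbered cultures belong together. The labels do not say so, and the libraries were not treated as paired. By library size alone, the median log2 fold change of all genes was -0.13 with ML355 and -0.16 and -0.15 for the libraries labelled NVR against L1_F_DMSO and CTRL_DMSO. Depth limits *ALOX12B*, *ALOX15B*, *ALOX5AP* and *PTGS1* in the groups where they had a few counts, and *ALOX15* and *GPR31* throughout.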
